A study of Rattus norvegicus with 35 samples.

Results

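Hypoxia-inducible genes were followed in rat liver across 6 treatment groups on 35 arrays. The genes were chosen by symbol: Ndrg1, Adm, Vegfa, Egln3, Bnip3, Pfkfb3, Ankrd37 and Hif1a. A gene was measured where a probe set, the group of array probes that reports 1 transcript, carried that symbol alone. This held for 7 of the 8 genes, read by 11 probe sets, among 13439 genes measured in this way. Bnip3 shared its only probe set with a second symbol, and no value is given for it. Where a gene had several probe sets, the one with the highest mean over all arrays was used.

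Cells sense oxygen through enzymes that hydroxylate prolines of the hypoxia-inducible factor, a transcription factor whose oxygen-labile subunit is encoded by Hif1a. With oxygen present the hydroxylated subunit is bound by the von Hippel-Lindau protein and degraded, and in hypoxia it accumulates and raises its target genes from DNA elements with a short shared core. Control of Hif1a is mostly at the protein, which the arrays did not measure, whereas most of the other genes here are known transcriptional targets. In liver such targets include factors for vessel growth and tone and enzymes of glycolysis, and oxygen supply falls along the sinusoid from the portal to the central side.

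The study asked how simvastatin, a statin that inhibits cholesterol synthesis, bears on the liver of rats with biliary cirrhosis that undergo hemorrhage and resuscitation (H/R), a bleeding followed by restoration of volume. Control sham rats (5 arrays) and control H/R rats (6 arrays) carried the label control and no ligation. Ligated sham (5 arrays) and ligated H/R rats (6 arrays) had secondary biliary cirrhosis from ligation and resection of the common bile duct, were given vitamin K each week and were examined 4 weeks after surgery. Simvastatin sham (5 arrays) and simvastatin H/R rats (8 arrays) were ligated in the same way and were given simvastatin by gavage at 5 mg/kg daily from 3 days before the experiment, the last dose 1 h before it. The labels do not say whether ligated rats without the drug were given vehicle, nor give strain, age, sex or the volume bled. They give each sample a group and a number only, and the p-values cover only the spread among such samples.

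Values are the log2 signals that the authors deposited, which ran from 1.51 to 13.79, with array medians over all probe sets from 3.97 to 4.29. In each group the background was set by the brightest of 23 nonspecific control probe sets, whose group mean was 4.51 in control sham, 4.59 in control H/R, 3.64 in ligated sham, 4.00 in ligated H/R, 3.26 in simvastatin sham and 3.32 in simvastatin H/R rats, and a gene counted as above background where its own group mean was higher. This background was higher in both control groups than in the ligated groups. All 9 hepatocyte markers were above it in every group. Whole liver was measured, in which fewer cells of a type and less RNA per cell cannot be told apart.

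RefSeq promoters (rat build GRCr8, 250 bases before to 50 after the annotated start) were on hand for 6 of the 7 genes. Vegfa had 2 entries and Ndrg1 had none. The promoters were searched on both strands for ACGTG and GCGTG, the core letters of the hypoxia response element (CACGT and CACGC in the printed strand). Overlapping matches were merged. Ankrd37 held 4 sites, Hif1a 2 and Pfkfb3 1, whereas Adm, Egln3 and both Vegfa entries held 0. A count of 0 holds for this window only, as bases outside it were not searched. Of 33469 promoters of this length, 41.6% held at least 1 site and 2.1% at least 4. Deviations from the group mean correlated positively across arrays in all 21 pairs of the 7 genes, as described further on. The promoters of Ankrd37, with the most sites, and of Adm and Egln3, which like Vegfa held none, are shown as examples. They lie at chr16:53001257-53001556 (plus strand), chr1:174179950-174180249 (plus strand) and chr6:77410966-77411265 (minus strand), run 5′ to 3′, and capitals mark the sites.
Ankrd37: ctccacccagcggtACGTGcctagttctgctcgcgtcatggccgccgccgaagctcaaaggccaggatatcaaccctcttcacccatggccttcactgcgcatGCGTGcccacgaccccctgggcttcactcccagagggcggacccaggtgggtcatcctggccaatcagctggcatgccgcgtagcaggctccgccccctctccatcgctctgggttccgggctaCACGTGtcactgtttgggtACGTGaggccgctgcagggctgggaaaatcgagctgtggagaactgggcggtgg
Adm: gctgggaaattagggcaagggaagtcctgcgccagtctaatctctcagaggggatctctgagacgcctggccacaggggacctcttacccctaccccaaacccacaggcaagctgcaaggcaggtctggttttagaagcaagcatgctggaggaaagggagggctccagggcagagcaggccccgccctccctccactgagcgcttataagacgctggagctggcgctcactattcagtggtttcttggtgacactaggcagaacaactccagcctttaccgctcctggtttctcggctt
Egln3: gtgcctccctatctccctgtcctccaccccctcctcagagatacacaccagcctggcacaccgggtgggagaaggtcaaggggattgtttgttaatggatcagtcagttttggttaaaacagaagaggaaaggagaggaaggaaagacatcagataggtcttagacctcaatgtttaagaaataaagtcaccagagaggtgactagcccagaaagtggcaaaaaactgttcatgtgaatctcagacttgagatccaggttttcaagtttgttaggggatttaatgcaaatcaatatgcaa
In Ankrd37 the sites begin 236, 147, 23 and 4 bases before the start. A match is a description of letters, and binding was not measured.

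Hif1a, the gene of the oxygen-regulated factor subunit itself, had high signals in all groups. The control sham arrays read 9.20, 9.09, 9.27, 9.08 and 8.999 in log2 signal, and the ligated sham arrays 9.38, 9.37, 9.51, 9.65 and 9.44. All 5 ligated sham arrays were above all 5 control sham arrays. After H/R the control rats spanned 9.17 to 10.04 with a median of 9.30, and the ligated rats 9.52 to 10.37 with a median of 9.72. The simvastatin sham arrays read 9.09, 9.60, 9.29, 9.72 and 9.64, and simvastatin H/R arrays spanned 9.36 to 9.73 with a median of 9.51. By mean the ligated H/R group was highest (9.85 ± 0.33, SD, n = 6) and control sham lowest (9.13 ± 0.11, n = 5), each separated from its neighbour by more than the pooled SD of the pair. The 4 groups between them, at 9.47 to 9.51, did not differ beyond their spread.

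Egln3 encodes a prolyl hydroxylase that marks the factor for degradation and is itself a hypoxia target. Its control sham arrays read 3.39, 4.02, 3.25, 2.66 and 3.29, and control H/R arrays spanned 2.26 to 4.57 with a median of 3.41. Both group means were below the nonspecific probes, so Egln3 was not well above background in control liver. The ligated sham arrays read 5.77, 6.02, 5.76, 7.77 and 8.05, and the ligated H/R arrays spanned 6.88 to 8.09 with a median of 7.26. Replicates 4 and 5 of ligated sham lay within the range of the H/R arrays, and the other 3 lay below it. The simvastatin sham arrays read 7.07, 7.34, 5.86, 6.11 and 6.06, and the simvastatin H/R arrays spanned 6.31 to 9.60 with a median of 7.06. Every ligated array, treated or not, was above every control array. The lowest of the 4 ligated groups, simvastatin sham (6.49 ± 0.67, n = 5), stood at least 1.89 above control H/R, taken against the nonspecific level there, and no other pair of neighbours in the order of means differed by more than its spread.

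Vegfa, the vascular endothelial growth factor, showed small differences. Its control sham arrays read 8.20, 8.73, 8.39, 8.47 and 8.31, and its ligated sham arrays 8.34, 8.33, 8.60, 9.39 and 8.86. Control H/R arrays spanned 8.07 to 8.91 with a median of 8.45, and ligated H/R arrays 8.39 to 9.86 with a median of 9.05. Simvastatin sham arrays read 8.66, 8.99, 8.91, 9.29 and 8.74, and simvastatin H/R arrays spanned 8.41 to 9.97 with a median of 8.76. All groups overlapped their neighbours. The means ran from 8.42 in control sham to 9.07 in ligated H/R, and no neighbouring pair in that order differed beyond its spread.

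Adm encodes adrenomedullin, a peptide that widens vessels, and it varied widely inside each group. The control sham arrays read 4.75, 3.83, 5.45, 3.86 and 3.71, with a mean of 4.32 that was not above the nonspecific probes. Control H/R arrays spanned 4.21 to 6.06 with a median of 5.01. Ligated sham arrays read 4.39, 4.25, 4.41, 6.22 and 5.37, so that replicates 4 and 5 stood apart from the other 3 here as they did for Egln3. Ligated H/R arrays spanned 5.72 to 6.91 with a median of 6.33, the narrowest spread of the 6 groups (SD 0.43). Simvastatin sham arrays read 5.03, 6.29, 4.35, 4.98 and 4.29, and simvastatin H/R arrays spanned 4.68 to 6.95 with a median of 5.94. The 3 H/R groups held the 3 highest means, 6.29 in ligated, 5.81 in simvastatin and 5.14 in control rats, but no neighbouring pair differed beyond its spread.

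Ndrg1, a stress-response gene raised by hypoxia in many cell types, had the clearest order of groups. Control sham arrays read 6.00, 5.60, 5.81, 5.53 and 5.85. Control H/R arrays spanned 5.95 to 7.02 with a median of 6.69, and 4 of the 6 were above every control sham array. Ligated sham arrays read 8.08, 8.59, 7.61, 9.18 and 8.67, all above every control array. Ligated H/R arrays spanned 8.56 to 9.34 with a median of 8.85. Simvastatin sham arrays read 8.55, 8.80, 8.36, 8.55 and 8.49, and simvastatin H/R arrays spanned 8.54 to 9.79 with a median of 8.96. By mean the order was simvastatin H/R (9.01), ligated H/R (8.89), simvastatin sham (8.55), ligated sham (8.42), control H/R (6.56) and control sham (5.76). The 2 H/R groups at the top did not differ beyond their spread, nor did the 2 sham groups below them, while the 3 other steps exceeded it.

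Ankrd37 encodes an ankyrin repeat protein known as a direct target of the factor. Control sham arrays read 5.69, 5.90, 5.33, 5.85 and 5.87. Control H/R arrays spanned 6.04 to 7.28 with a median of 6.45, and all 6 were above all 5 sham arrays. Ligated sham arrays read 5.86, 5.55, 5.93, 6.95 and 6.45, and the ligated H/R arrays lay close together at 6.60 to 6.87 with a median of 6.69. Replicate 4 of ligated sham exceeded every ligated H/R array. Simvastatin sham arrays read 5.89, 5.90, 6.23, 6.44 and 5.91, and simvastatin H/R arrays spanned 5.81 to 7.45 with a median of 6.45. The 3 H/R means, at 6.43 to 6.71, were above the 3 sham means, at 5.73 to 6.15. Only control sham was separated from its neighbour, simvastatin sham, by more than the pooled SD.

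Pfkfb3 makes an enzyme whose product activates glycolysis. Its arrays spanned 2.80 to 3.91 over all groups, and neither of its 2 probe sets was above the nonspecific probes by mean in any group. Its level is therefore only bounded from above, and its differences carry no fold.

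**Figure D1:**
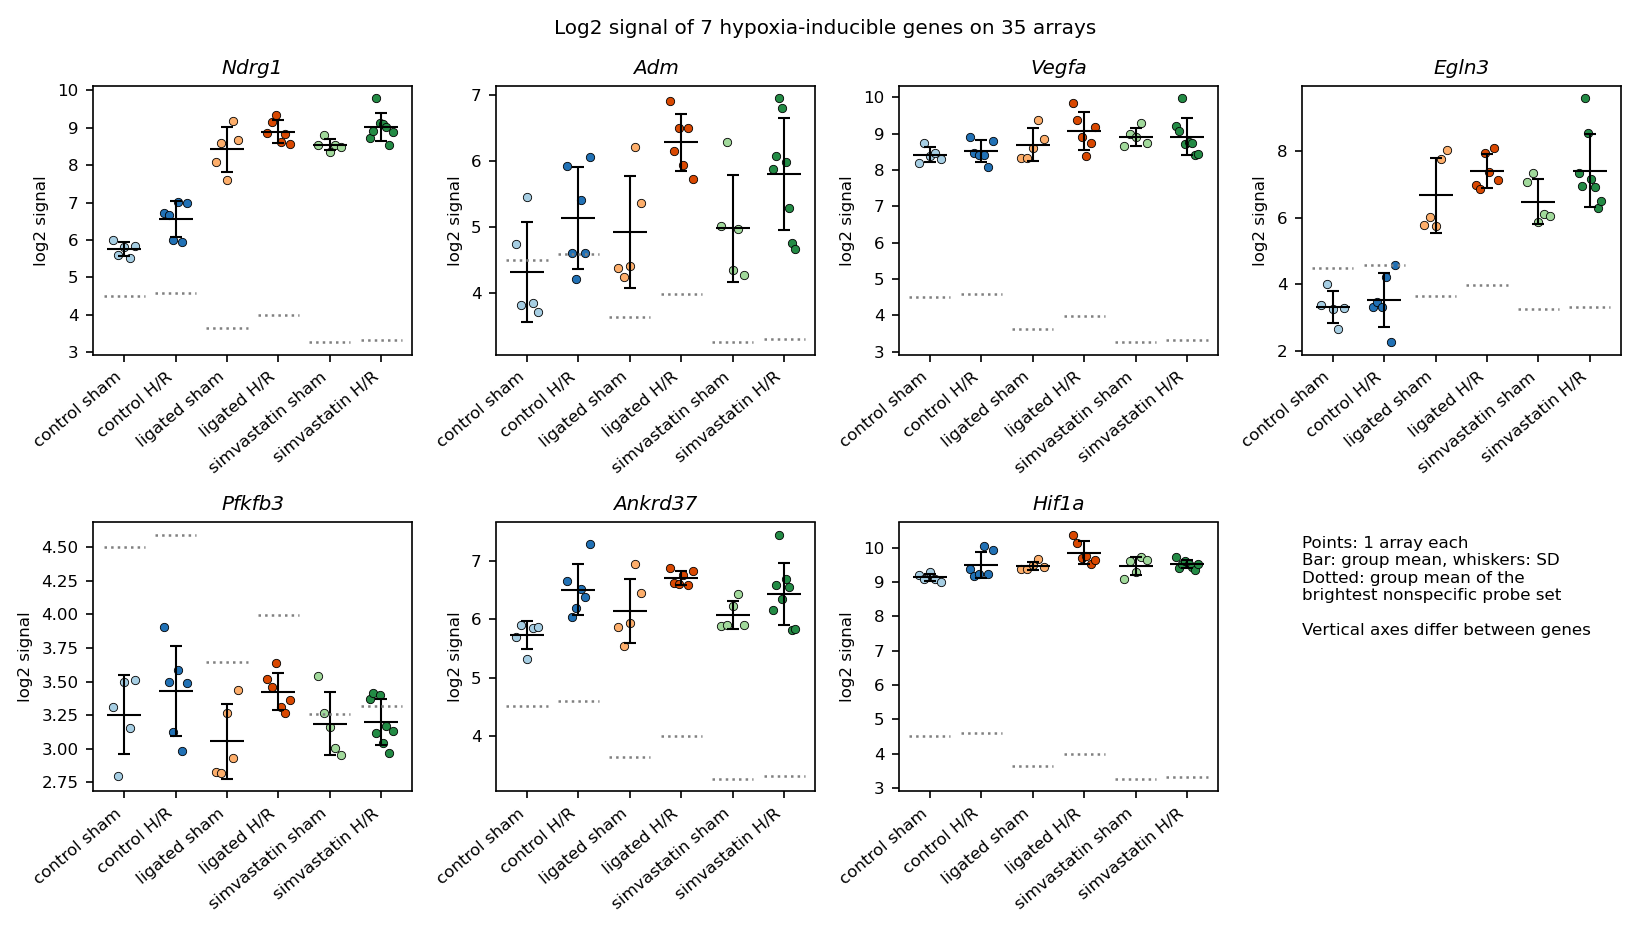
Log2 signal of 7 hypoxia-inducible genes (vertical axes, which differ between genes) in the 6 groups (horizontal axis), with 1 point per array, a bar at the group mean, whiskers of 1 SD and a dotted line at the group mean of the brightest nonspecific probe set. All control arrays lie below all ligated arrays for Ndrg1 and Egln3, control Egln3 and all Pfkfb3 means lie below the dotted lines, and the other genes overlap between most groups.

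Bile duct ligation in sham rats raised 2 of the 7 genes and left the other 5 short of the threshold. Ndrg1 was 6.35-fold higher in ligated than control rats, and Egln3 at least 4.5-fold higher, taken against the background level because its control arrays were not above it. Hif1a was 1.27-fold and Ankrd37 1.34-fold higher in these samples, without passing the test. All tests were made with limma, a linear model over all genes, and a gene was called at an adjusted p under 0.05. In this comparison 47.6% of all genes were called, 25.3% with a rise, so 2 of 7 (both rises) is near the share of rises over all genes.

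The fitted log2 change of Ndrg1 was 2.67 ± 0.23 (SE, 5 against 5 arrays, limma adjusted p = 3.2e-11), and that of Egln3 3.35 ± 0.50 (adjusted p = 1.6e-06). For both genes all 5 ligated arrays exceeded all 5 control arrays. Hif1a also showed no overlap, with a log2 change of 0.34 ± 0.16 (adjusted p = 0.071). Its adjusted p over the alternatives ran from 0.02 to 0.83, and its sign turned to -0.04 when arrays were centred on their medians. Of the others, Adm differed by 0.61 ± 0.45 (adjusted p = 0.27), Ankrd37 by 0.42 ± 0.24 (0.15), Vegfa by 0.28 ± 0.24 (0.35, with -0.10 after median centring) and Pfkfb3 by -0.20 ± 0.16 (0.30). The medians used for centring were those of each array over the 13439 genes, not over all probe sets. Centring moved the median change of all genes from -0.04 to -0.42. Ndrg1 and Egln3 were still called on that scale, at 2.29 and 2.97. On that scale Pfkfb3, which was not above background, was called as well, at -0.58 (adjusted p = 0.0014, within a range over the alternatives from 0.0014 to 0.52).

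Markers of other cell types moved with ligation. Of 12 cholangiocyte markers measured 11 rose and 0 fell, the median change being 4.38 against -0.04 for all genes. Their mean signal ran from 5.06 to 5.88 on the control sham arrays and from 8.58 to 9.55 on the ligated sham arrays. All 10 stellate and matrix markers rose (mean signal 5.95 to 6.26 against 7.47 to 8.47), as did 6 of 9 macrophage markers (7.25 to 8.00 against 8.28 to 8.88), while 1 macrophage marker fell. Of 9 hepatocyte markers 4 fell and 0 rose (12.13 to 12.21 against 11.52 to 11.96), and 2 of 6 endothelial markers rose and 1 fell. The part of these cell types in the higher Ndrg1 and Egln3 signals was not tested.

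The sample titles end in numbers whose meaning is not stated. All control arrays share the ending 13, as do some of the simvastatin arrays, whereas no untreated ligated array has it, so ending and ligation cannot be told apart in the untreated rats. Among arrays with that ending, Ndrg1 read 8.36 to 8.55 on 3 simvastatin sham arrays and 5.53 to 6.00 on the 5 control sham arrays. Egln3 read 5.86 to 6.11 and 2.66 to 4.02 on the same arrays. Both genes were higher on these simvastatin sham arrays than on the control sham arrays of that ending, where Egln3 was not above background. These ligated rats had been given simvastatin, and the part of the ending was not tested.

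Ligation in rats that underwent H/R raised 5 of the 7 genes, among 47% of all genes called in that comparison (24.7% upward). Ndrg1 was 5.05-fold higher (log2 change 2.34 ± 0.21, 6 against 6 arrays, limma adjusted p = 7.6e-11) and Egln3 at least 7.02-fold higher (3.87 ± 0.46, adjusted p = 2.3e-08). Every ligated array exceeded every control array for both. The calls for the other 3 were less firm, and their arrays overlapped. Adm was 2.22-fold higher (1.15 ± 0.41, adjusted p = 0.022), Vegfa 1.47-fold (0.55 ± 0.22, 0.041) and Hif1a 1.29-fold (0.36 ± 0.14, 0.036). Ankrd37 differed by 0.20 ± 0.22 (adjusted p = 0.48, with -0.15 after median centring), and Pfkfb3, below background, by -0.01 ± 0.14 (0.98, with -0.35 and a call at 0.025 after median centring).

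Cell type markers moved in this comparison as well. Of 12 cholangiocyte markers 11 rose and 0 fell, with a median change of 3.90 against -0.03 for all genes (mean signal 5.23 to 6.34 on control H/R and 8.56 to 9.44 on ligated H/R arrays). Of 10 stellate and matrix markers 9 rose (5.96 to 6.54 against 7.52 to 8.50), of 9 macrophage markers 7 (7.57 to 8.19 against 8.43 to 9.47) and of 6 endothelial markers 3 (6.09 to 6.62 against 6.63 to 7.22). Of 9 hepatocyte markers 5 fell (12.13 to 12.29 against 11.22 to 11.89). The part of these cell types in the 5 higher signals was not tested.

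The calls of Adm, Vegfa and Hif1a did not hold under every alternative. After median centring Adm stood at 0.80, Vegfa at 0.21 and Hif1a at 0.02, with adjusted p of 0.084, 0.43 and 0.93. On that scale only Ndrg1 and Egln3 were called higher, and Pfkfb3 was called lower. Over the alternatives the adjusted p ran from 0.0082 to 0.095 for Adm, from 0.012 to 0.70 for Vegfa and from 0.0055 to 0.93 for Hif1a. The second, dimmer probe set of Vegfa gave -0.30 and that of Hif1a, itself near background, -0.15. Adm lost its call when control H/R replicate 3 was left out (0.96, adjusted p = 0.064), and also without ligated H/R replicate 1 (1.02, adjusted p = 0.055). Vegfa lost it when any of control H/R replicates 2 to 5 or ligated H/R replicates 1, 2 and 6 was left out (0.40 to 0.54, adjusted p 0.063 to 0.15). Hif1a lost it when any of control H/R replicates 1, 2, 3 and 5 or ligated H/R replicates 1 and 2 was left out (0.26 to 0.34, adjusted p 0.067 to 0.13). The count of genes called was 2 with control H/R replicate 3 or ligated H/R replicate 1 left out, and 3 with control H/R replicate 2 or 5 or ligated H/R replicate 2 left out. This comparison shares no arrays with that in sham rats, but the fitted spread is common to both.

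Hemorrhage and resuscitation gave higher means for all 7 genes in control, in ligated and in simvastatin rats, yet 0 of 7 passed the test in any of these pairs. Over all genes 0.856% were called in control rats, 0.134% in ligated rats and 0% in simvastatin rats. Before adjustment, 3, 5 and 2 of the 7 genes had a limma p under 0.05 in the same order, where 12.2%, 10.4% and 5.4% of all genes did. Pfkfb3, not above background in any group, is among the 7 and is 1 of the 5 in ligated rats. In control rats the changes of Egln3 (0.21), not above background in either group there, and Vegfa (0.097) were smaller than their errors. In simvastatin rats the changes of Vegfa (0.002), Pfkfb3 (0.015) and Hif1a (0.045) were smaller than their errors. Their signs changed in 9 of 22, 5 of 21 and 4 of 22 alternatives. The share of all genes with a higher mean after H/R was 48.8%, 46.4% and 46.3%. The median change of the 7 genes was 0.36, 0.47 and 0.36, against -0.01, -0.02 and -0.02 for all genes.

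In control rats Ndrg1 was 1.74-fold higher after H/R (log2 change 0.80 ± 0.22, 6 against 5 arrays, limma adjusted p = 0.076) and Ankrd37 1.72-fold (0.79 ± 0.23, adjusted p = 0.10). All 6 H/R arrays exceeded all sham arrays for Ankrd37 and 4 of 6 for Ndrg1. Ndrg1 passed the test when control H/R replicate 3 (0.91, adjusted p = 0.031) was left out, or replicate 5 (0.92, adjusted p = 0.032), over a range from 0.031 to 0.81. Those 2 arrays had 0 of the 7 genes above their group mean. Hif1a differed by 0.36 ± 0.15 (adjusted p = 0.28) and Adm by 0.82 ± 0.43 (0.45). Vegfa differed by 0.097 ± 0.235 (limma adjusted p = 0.93). Egln3 and Pfkfb3, not above background in either group, differed by 0.21 ± 0.48 (0.93) and 0.18 ± 0.15 (0.70).

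In ligated rats Adm showed the widest gap of means, 2.57-fold (log2 change 1.36 ± 0.43, 6 against 5 arrays, limma adjusted p = 0.22). Ligated H/R replicates 1, 3 and 5 exceeded every sham array for it. Egln3 differed by 0.73 ± 0.48 (adjusted p = 0.64), Ankrd37 by 0.56 ± 0.23 (0.39), Ndrg1 by 0.47 ± 0.22 (0.46), Hif1a by 0.39 ± 0.15 (0.35) and Vegfa by 0.37 ± 0.23 (0.61). Pfkfb3, below background, differed by 0.37 ± 0.15 (adjusted p = 0.37). Neutrophil markers had a mean log2 signal of 4.09 to 6.77 on these arrays and of 4.17 to 4.68 in ligated sham, with 0 of 6 called and 4 of 6 at an unadjusted limma p under 0.05. Of these 6 markers 3 were above the nonspecific probes in ligated H/R and 2 in ligated sham rats, and their part in the differences was not tested.

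In simvastatin rats Egln3 was 1.91-fold higher after H/R (0.93 ± 0.45, 8 against 5 arrays, limma adjusted p = 0.89), Adm 1.77-fold (0.82 ± 0.41) and Ndrg1 1.38-fold (0.46 ± 0.21), all with an adjusted p of 0.89. Vegfa stood at 0.00 ± 0.22, with a 95% interval from -0.45 to 0.45. Hif1a stood at 0.05 ± 0.14, with an interval from -0.24 to 0.33.

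The H/R effect was not shown to differ between the pairs for any of the 7 genes. In the direct test of ligated against control rats 0 of 7 were called, with adjusted p from 0.97 to 1, where 0.00744% of all genes were. In that of simvastatin against untreated ligated rats 0 of 7 were called as well, with adjusted p from 0.99 to 1 and the same 0.00744% of all genes. Before adjustment 0 of 7 had a limma p under 0.05 in either test, where 5.5% and 4.9% of all genes did. The intervals are wide, from -0.70 to 1.78 for Adm and from -0.87 to 1.91 for Egln3 in the first test.

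Averaged over the 3 pairs, a comparison added after these values had been seen, H/R raised 3 of the 7 genes, with 1.76% of all genes called. Adm was at least 1.92-fold higher (fitted log2 change 1.00 ± 0.24, limma adjusted p = 0.028), with control sham rats taken at background because Adm was not above it there. Ndrg1 was 1.49-fold higher (0.58 ± 0.13, limma adjusted p = 0.015) and Ankrd37 1.48-fold (0.57 ± 0.13, 0.021). Hif1a stood at 0.26 ± 0.09 (adjusted p = 0.096), Egln3 at 0.62 ± 0.27 (0.22), Pfkfb3 at 0.19 ± 0.08 (0.24) and Vegfa at 0.16 ± 0.13 (0.59). Ankrd37 was called under all 43 alternatives run for this average, with an adjusted p of at most 0.047. Some of these could not move its change. The average uses all 6 groups, so fitting only the compared groups repeats the main fit. Ankrd37 has 1 probe set, so the choice of probe set leaves its values as they are. Adm lost its call without control sham replicate 5, control H/R replicate 6, ligated sham replicate 1 or simvastatin sham replicate 3, with changes of 0.94 to 0.96 and an adjusted p between 0.05 and 0.056. Ndrg1 lost it only with its dimmer probe set (0.35, adjusted p = 0.18), over a range from 0.0055 to 0.18.

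**Figure D2:**
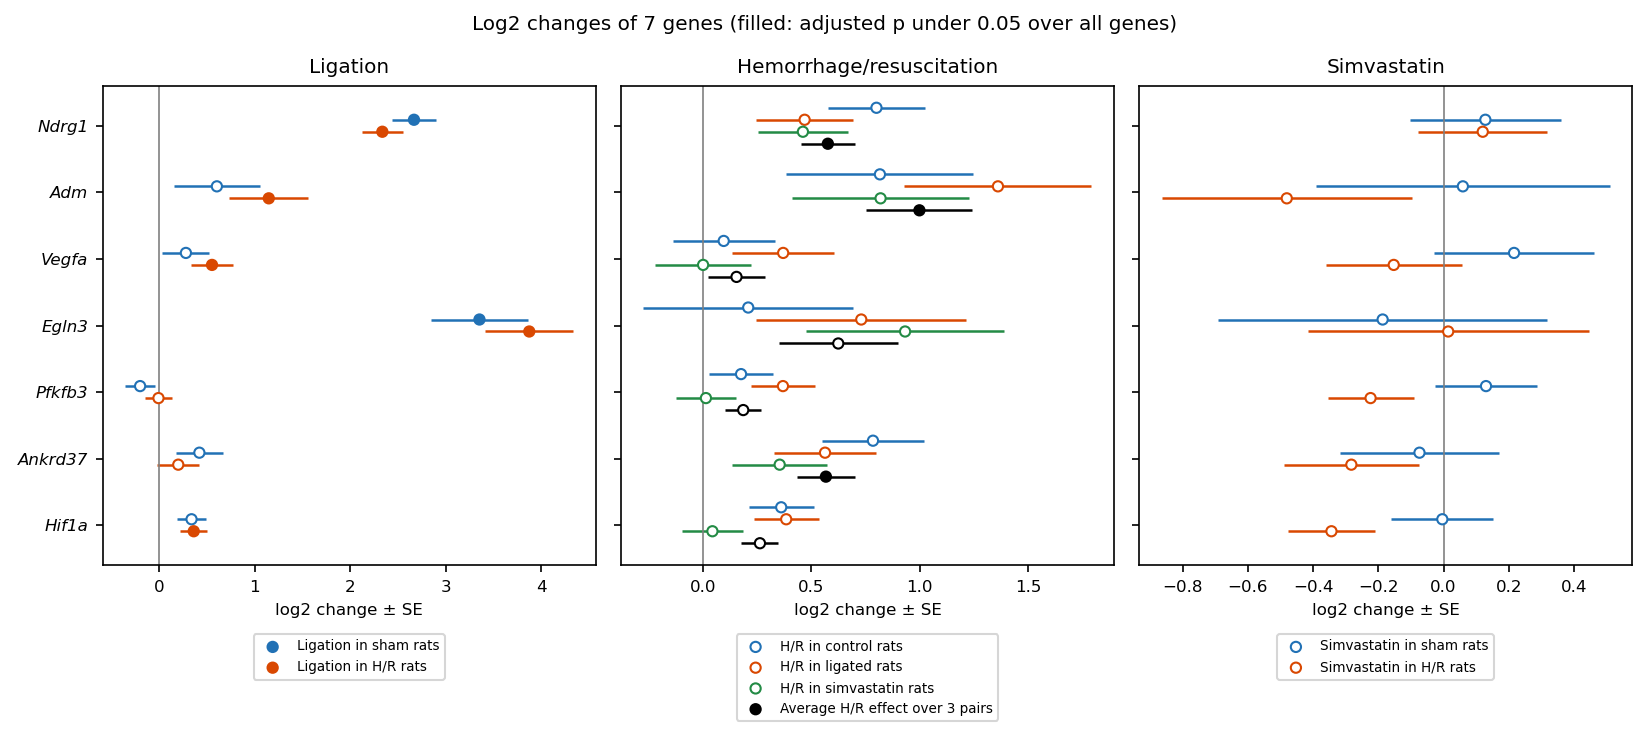
Log2 change ± SE (horizontal axes, which differ) of each of 7 genes for ligation (left), H/R (middle) and simvastatin (right), filled where the limma adjusted p over all genes was under 0.05. Ndrg1 and Egln3 lie farthest to the right for ligation, all H/R values are at or above 0 with 3 filled for the average over pairs, and no simvastatin value is filled.

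Simvastatin was not shown to move any of the genes. In sham rats 0 of 7 were called where 0.781% of all genes were, and in H/R rats 0 of 7 where 1.35% were. Before adjustment 0 and 1 of the 7 had a limma p under 0.05, where 10.8% and 14.4% of all genes did. In sham rats the changes against untreated ligated rats ran from -0.19 for Egln3 to 0.22 for Vegfa, with adjusted p from 0.80 to 0.99. The 95% intervals were -0.34 to 0.60 for Ndrg1, -0.86 to 0.97 for Adm and -1.21 to 0.84 for Egln3, which leave room for changes of that size. In H/R rats Hif1a was lower on simvastatin by the widest margin relative to its error, with a change of -0.34 ± 0.13 (8 against 6 arrays, limma adjusted p = 0.21, 95% interval -0.61 to -0.07). Ligated H/R replicates 1, 2 and 4 lay above all simvastatin H/R arrays for Hif1a. Neutrophil markers had a median change of -0.94 in this comparison (mean signal 4.09 to 6.77 on ligated H/R and 4.05 to 5.24 on simvastatin H/R arrays), with 0 of 6 called and 3 of 6 at an unadjusted limma p under 0.05, and their part was not tested. Adm stood at -0.48 ± 0.38 (adjusted p = 0.61), Ankrd37 at -0.28 ± 0.21 (0.58), Vegfa at -0.15 ± 0.21 (0.80) and Ndrg1 at 0.12 ± 0.20 (0.84).

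Arrays of 1 group differed from each other in several of the genes at once. Ligated sham replicate 4 was the highest of its group for 5 genes (Ndrg1, Adm, Vegfa, Ankrd37 and Hif1a). Simvastatin H/R replicate 3 was the highest for 5 (Ndrg1, Adm, Vegfa, Egln3 and Ankrd37), and replicate 7 the lowest for 6. Control H/R replicate 6 was above its group mean for all 7, replicates 3 and 5 for 0. On ligated sham replicate 4 the stellate and matrix marker mean, 8.47, was the highest of its group, and the macrophage mean, 8.28, and red cell mean, 2.89, were the lowest. Its cholangiocyte, hepatocyte, endothelial and neutrophil means, at 9.51, 11.69, 6.75 and 4.21, lay within the range of the other 4. Simvastatin H/R replicate 3 had the lowest cholangiocyte mean of its group, at 8.57, and the highest hepatocyte mean, at 11.97.

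To describe this, each array's deviation from its group mean was correlated between genes over all 35 arrays, in 21 pairs with a permutation test inside groups (100000 resamples). All 21 coefficients were positive, and 13 had an adjusted permutation p under 0.05 for Pearson's r. Egln3 was not above background in either control group, nor Adm in control sham rats, and their deviations on those arrays were included. Ndrg1 and Egln3 gave r = 0.72 (rho = 0.65, adjusted permutation p 0.00031 and 0.0016), and r = 0.65 without the 2 arrays farthest from the median for Ndrg1. Such arrays were picked anew for each pair, from the deviations of the gene named first only. Adm and Egln3 gave r = 0.70 (rho = 0.69, adjusted permutation p 0.00037 and 0.0015), and Vegfa and Ankrd37 r = 0.70 (rho = 0.63, 0.00035 and 0.0016). Both r fell, to 0.66 without the 2 arrays farthest for Adm and to 0.63 without the 2 farthest for Vegfa. The value of 0.66 still included simvastatin H/R replicate 3, which had the largest deviation of Egln3 (2.18). Hif1a gave r = 0.14 with Pfkfb3, which was below background (rho = 0.12, adjusted permutation p 0.54 and 0.54), 0.18 with Egln3 (rho = 0.18, 0.31 and 0.30) and 0.46 with Vegfa (rho = 0.43, adjusted permutation p 0.016 and 0.030). Of the 13 pairs, 4 passed for r but not for rho. These were Egln3 with Vegfa (r = 0.47) and with Ankrd37 (r = 0.58), at an adjusted permutation p for rho of 0.10 and 0.077, and Ndrg1 with Vegfa (r = 0.49) and with Ankrd37 (r = 0.54), at 0.10 and 0.079. Pfkfb3, below background, correlated with Ankrd37 at r = 0.06 (rho = 0.10, adjusted permutation p 0.77 and 0.61). With Adm it gave r = 0.46 (rho = 0.48, adjusted permutation p 0.025 and 0.027), which is 1 of the 13 pairs. Both genes of a pair come from the same array, so a shift of a whole array enters both, and its part was not tested.

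**Figure D3:**
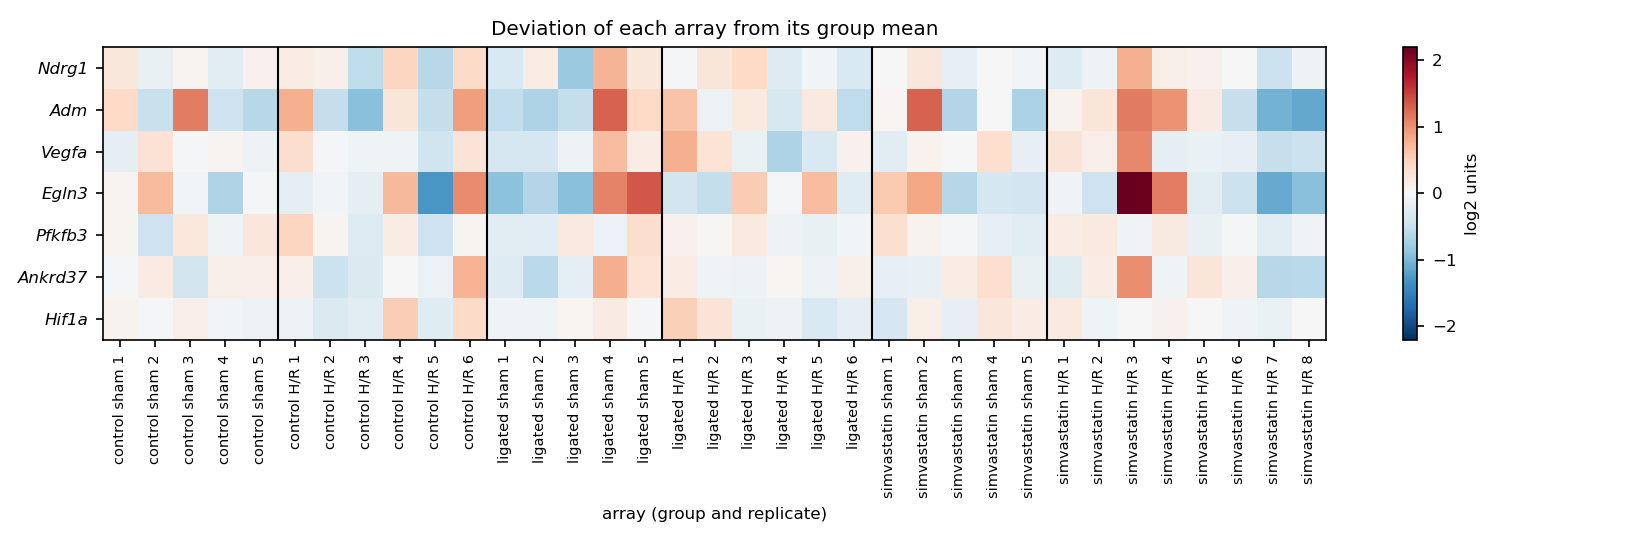
Deviation of each array from its group mean in log2 units (colour scale, red above and blue below) for 7 genes (rows) on 35 arrays (columns, by group and replicate). Columns such as ligated sham 4 and simvastatin H/R 3 are red for most genes, and simvastatin H/R 7 is blue for all 7.

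The genes whose deviations were most like those of each member were named as the 3 with the highest Pearson r over 35 arrays. All genes were ranked except uncharacterised loci, which were left out by name. For Egln3 these were Ero1a (r = 0.84), Fam117b (0.82) and Eno2 (0.82). For Ankrd37 they were P4ha1 (0.83), Vegfa (0.70) and Efna1 (0.69), and for Ndrg1 they were Egln3 (0.72), Eno2 (0.71) and P4ha1 (0.70). Ero1a makes an oxidase of the endoplasmic reticulum, Eno2 a glycolytic enolase and P4ha1 a collagen prolyl hydroxylase. For Adm they were Slc2a1 (0.81), a glucose transporter, Rgs4 (0.78), a regulator of G-protein signalling, and Hmox1 (0.77), heme oxygenase. Vegfa went with Wsb1 (0.86), Nxf1 (0.85) and Paxbp1 (0.84), and Hif1a with Srgn (0.84), Serpinb10 (0.79) and Clic4 (0.79). Pfkfb3 went with Mchr1 (0.74), Ppil4 (0.69) and Rif1 (0.67). Serpinb10 and Mchr1 had mean signals over all arrays of 2.46 and 2.42, under the lowest group background of 3.26. Pfkfb3 was not above background in any group either, so its match with Mchr1 is between 2 background-level signals. Of all the genes named as most alike, Rgs4, P4ha1 and Hmox1 were called for the averaged H/R effect, at 2.06-fold (limma adjusted p = 0.017), 1.37-fold (0.040) and 1.57-fold (0.049).

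Other genes of the pathway were counted from lists drawn up by function. Among 14 measured oxygen-sensing genes and regulators of the factor, ligation in sham rats raised 2 and lowered 6, with a median change of -0.32. Vhl, which encodes the von Hippel-Lindau protein, rose 1.83-fold (limma adjusted p = 0.00022), and Siah2, a ubiquitin ligase for the hydroxylases, fell by 1.11 on the log2 scale (adjusted p = 0.00032). Hif3a and Epas1 were called lower too, but neither was above the nonspecific probes in these groups. On the H/R average 1 of the 14 was called, Cited2, a competitor of the factor for its coactivator, at 1.57-fold (adjusted p = 0.015).

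Of 22 genes of glycolysis and pyruvate handling, ligation in sham rats raised 6 and lowered 4, with a median change of 0.12. Pfkp, a phosphofructokinase, rose 9.8-fold (limma adjusted p = 9.2e-13), Hk1, a hexokinase, at least 2.73-fold and Pkm, a pyruvate kinase, at least 4.04-fold. Pdk1, a known target of the factor that holds pyruvate back from oxidation in mitochondria, fell by 1.51 (adjusted p = 1.7e-06). On the H/R average 0 of the 22 rose and 1 fell, with 11 at an unadjusted limma p under 0.05. Such a p was reached by 17.1% of all genes. The one that fell was Pfkfb1, the liver form of the enzyme family of Pfkfb3, by 0.63 (adjusted p = 0.043).

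Among 27 other targets of the factor, ligation in sham rats raised 12 and lowered 4, with a median change of 0.23. Plod2, a collagen lysyl hydroxylase, rose at least 15-fold, Bhlhe41, a transcriptional repressor of the circadian clock, at least 5.78-fold and Mxi1, an antagonist of Myc, 2.75-fold (limma adjusted p = 5.6e-10). Insig2, a brake on sterol synthesis, fell by 1.86 (adjusted p = 5.2e-07). H/R in control rats raised 1 of the 27, Plod2, at least 2.03-fold (adjusted p = 0.044), where 0.365% of all genes rose, and the H/R average 2, P4ha1 and Hmox1. In H/R rats on simvastatin 1 of the 27 fell, Loxl2, a collagen cross-linking oxidase, by 0.83 (adjusted p = 0.028), where 0.506% of all genes fell. The stellate and matrix markers had a median change of -0.41 in that comparison against -0.00 for all genes. An unadjusted limma p under 0.05 was reached by 14.4% of all genes and by 5 of these 10 markers. Of these 10 only Col1a1, a collagen chain, was called, by -0.92 (adjusted p = 0.020). Their mean signal spanned 7.52 to 8.50 on the ligated H/R arrays and 7.49 to 8.31 on the simvastatin H/R arrays, and their part in these changes was not tested.

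Of 17 vascular growth genes and partners of adrenomedullin, ligation in sham rats raised 8 and lowered 3, with a median change of 0.47. Ramp1 rose 6.15-fold (limma adjusted p = 3.0e-10) and Ramp2, an adrenomedullin co-receptor, 2.37-fold (6.5e-06). Vegfd, a lymphatic growth factor, rose at least 2.21-fold and Tie1, an endothelial receptor, at least 1.93-fold. On the H/R average 1 of 17 was called, Flt1, a receptor for Vegfa, at a log2 change of 0.62 (adjusted p = 0.017), with no fold given since it was not above background in either control group. In H/R rats on simvastatin 1 of 17 fell, Nrp1, a co-receptor for Vegfa, by 0.93 (adjusted p = 0.016), in the comparison in which Col1a1 and Loxl2 fell and 0.506% of all genes did.

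Of 6 measured relatives of the members by sequence, ligation in sham rats raised 4 and lowered 2. Bnip3l, the relative of Bnip3 in mitochondrial clearance, rose 1.43-fold (limma adjusted p = 8.9e-05) and Ndrg4 at least 1.43-fold, whereas Ndrg2 fell by 0.79 (adjusted p = 0.0041). The direction thus differed among relatives of Ndrg1. These counts stand against 25.3% of all genes rising and 22.4% falling with ligation in sham rats, and 0.856% rising and 0.908% falling on the H/R average.

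**Figure D4:**
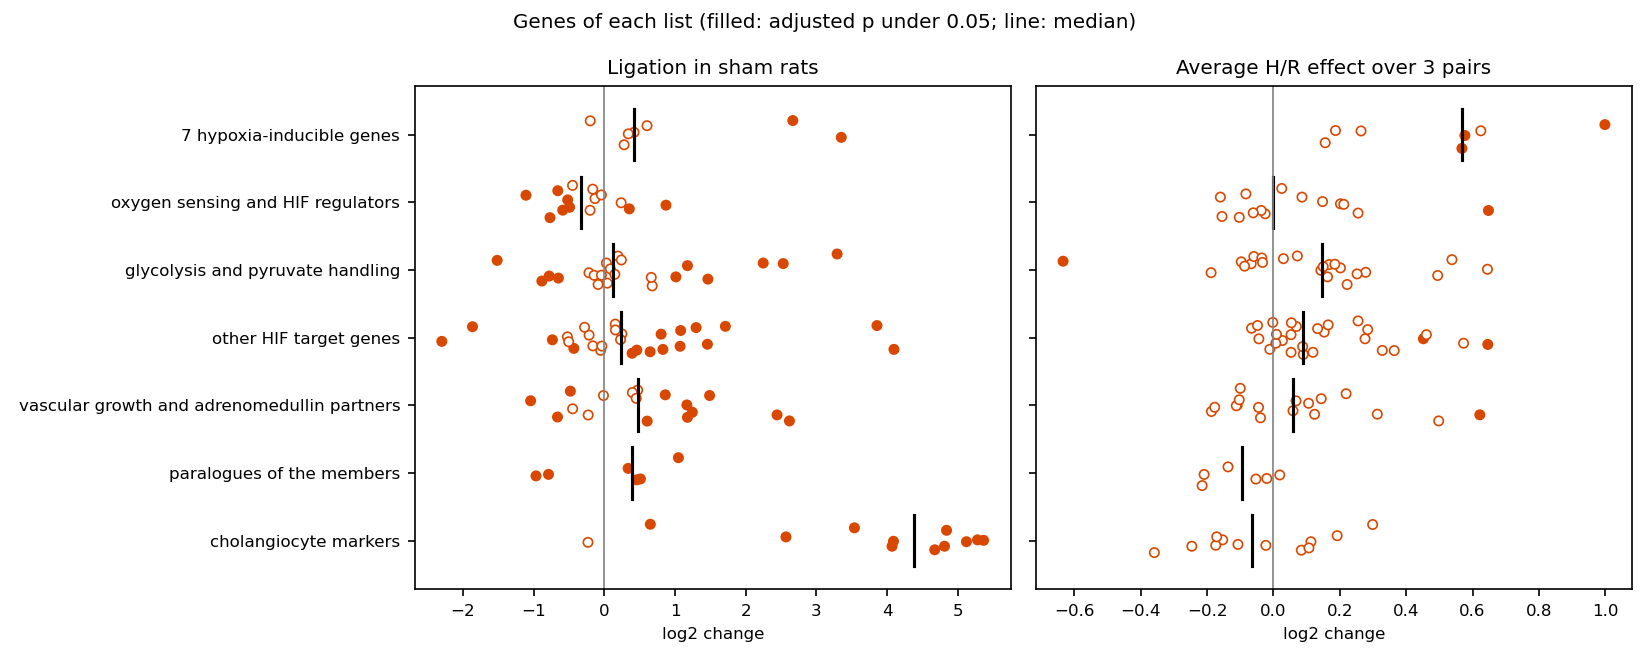
Log2 change (horizontal axes) of each gene of 7 lists (rows) for ligation in sham rats (left) and the H/R effect averaged over 3 pairs (right), filled where the limma adjusted p was under 0.05, with a line at each list's median. Cholangiocyte markers lie farthest to the right for ligation, and for H/R the 7 hypoxia-inducible genes have the highest median, 0.57, a list chosen with earlier results of these data known.

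Second probe sets existed for Ndrg1, Vegfa, Pfkfb3 and Hif1a. That of Ndrg1 also stood higher after ligation in sham rats (3.73 ± 0.32 against 4.51 ± 0.50, SD, n = 5 each), its control level being below the nonspecific probes. That of Vegfa, which was above background, ran the other way, at 5.93 ± 0.35 in control sham and 5.59 ± 0.85 in ligated sham rats, so the 2 probe sets of Vegfa disagree on direction. In the H/R average the second Vegfa probe set gave 0.44 and the first 0.16. The second probe set of Hif1a was above background only in simvastatin sham rats, by 3.28 against 3.26, and is no check on the first.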

How the data were processed

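Biotin-labelled liver RNA of 35 rats was measured on single-colour Affymetrix arrays, per the labels. The authors deposited normalized log2 signals per probe set, used as given; that scale follows from their range, and the normalization, background step and RNA extraction are not given in the sources used here. Of 31139 probe sets 19069 carried 1 gene symbol in the platform annotation, 572 several and 11498 none; only the first were used, the brightest for each of 13439 genes. Groups came from the labels, and replicate numbers follow sample order. One mean per group was fitted over all arrays with limma 3.58.1 (lmFit, eBayes) in R 4.3.3, with Benjamini-Hochberg adjustment over all genes of a comparison, after a check on simulated data. Comparisons that use the same group share its arrays. The members and lists were chosen with earlier results of these data known. Outside the members, up to 4 called genes of smallest p are named per list and comparison. The number of arrays (5 to 8 per group) limits the precision. A fold against a group below the nonspecific probes is a bound against that group's nonspecific level. Alternatives were the fit, eBayes options, array weights, a low-signal filter, scaling, the probe set, the title ending as a block and leaving out each array.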

Additional observations from a re-analysis of the deposited data

How the results depend on the processing

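Of 1705 recomputed changes of single members, 1577 kept their direction and side of the threshold. With the direction kept, 28 lost their call and 6 gained one. Another 94 changed sign, none of them with a call on both sides. Among these 94, the dimmer probe sets of Vegfa (-0.30) and Hif1a (-0.15) also lost the call for ligation in H/R rats. Ndrg1 (0.78 to 2.87 in sham and 0.84 to 2.43 in H/R rats) and Egln3 (2.97 to 3.58 and 3.53 to 4.08) kept their ligation calls under all alternatives run. Egln3 has 1 probe set, so the choice of probe set could not move its change. The count of members called for ligation in H/R rats, 5, all rises, was 3 with only the compared groups in the fit, with the mean of the probe sets and with the dimmer probe set. It was 3 after median centring too, 2 rises and a fall of Pfkfb3 (-0.35, limma adjusted p = 0.025), which is below background, and 2 to 5 with 1 array left out. That for H/R in control rats was 0 to 1 with 1 array left out.

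The values whose sign changed follow, none of them called; the cause was not tested. With array weights, H/R in simvastatin rats gave -0.096 for Vegfa and -0.032 for Hif1a, simvastatin in sham rats -0.18 for Adm and 0.094 for Hif1a, simvastatin in H/R rats -0.34 for Egln3, and the simvastatin minus ligated difference 0.040 for Ndrg1. After median centring, ligation in sham rats gave -0.099 for Vegfa and -0.040 for Hif1a, ligation in H/R rats -0.15 for Ankrd37, simvastatin -0.013 for Adm in sham and -0.024 for Egln3 in H/R rats, and that difference 0.026 for Ndrg1. After repeated quantile normalization, Vegfa gave -0.006 for H/R in simvastatin rats and Egln3 -0.029 for simvastatin in H/R rats. With the title ending as a block the first was -0.003, and Ndrg1 gave -0.17 for simvastatin in H/R rats.

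With the mean of the probe sets, ligation gave -0.028 for Vegfa in sham and 0.068 for Pfkfb3 in H/R rats, H/R in simvastatin rats -0.052 for Hif1a, simvastatin in sham rats -0.009 for Ndrg1, -0.094 for Vegfa and 0.052 for Hif1a, and the difference 0.15 for Ndrg1. With the dimmer probe set, chosen after seeing the data, ligation in sham rats gave -0.34 for Vegfa and -0.16 for Hif1a, and in H/R rats -0.30 for Vegfa, 0.14 for Pfkfb3 and -0.15 for Hif1a. It gave -0.15 for Hif1a with H/R in simvastatin rats, and with simvastatin in sham rats -0.15 for Ndrg1, -0.40 for Vegfa, -0.13 for Pfkfb3 and 0.11 for Hif1a. The ligated minus control difference of Ndrg1 became 0.058, and the simvastatin minus ligated differences 0.31 for Ndrg1 and 0.19 for Vegfa.

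With 1 array left out, H/R in simvastatin rats ran from -0.15 to 0.095 for Vegfa, -0.042 to 0.10 for Pfkfb3 and -0.049 to 0.11 for Hif1a. Simvastatin in sham rats ran from -0.077 to 0.32 for Ndrg1, -0.27 to 0.38 for Adm, -0.42 to 0.16 for Egln3, -0.22 to 0.13 for Ankrd37 and -0.067 to 0.090 for Hif1a. Simvastatin in H/R rats ran from -0.30 to 0.004 for Vegfa and -0.30 to 0.17 for Egln3, and ligation in H/R rats from -0.095 to 0.090 for Pfkfb3. The ligated minus control difference ran from -0.081 to 0.13 for Hif1a, and the simvastatin minus ligated difference from -0.20 to 0.20 for Ndrg1 and -0.14 to 0.43 for Egln3.

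Over all genes, ligation calls in sham rats were 53.0% rises as deposited, 42.6% after repeated quantile normalization and 20.9% after median centring, and in H/R rats 52.5%, 42.9% and 21.2%. With only the compared groups in the fit, calls were 11 for H/R in control, 3 for H/R in ligated and 22 for simvastatin in sham rats. Array weights gave 43 for H/R in ligated rats, 6 for H/R in simvastatin rats, 397 for simvastatin in sham and 744 for simvastatin in H/R rats. The title ending as a block gave 4 for H/R in ligated and 13 for simvastatin in H/R rats. With 1 array left out, counts ran from 50 to 190 for H/R in control, 2 to 45 for H/R in ligated, 66 to 168 for simvastatin in sham, 100 to 342 for simvastatin in H/R rats and 107 to 338 for the average over pairs. No paired analysis was possible because the replicate numbers only follow the order of the samples and pair no rats. Pfkfb3 in all groups, and Egln3 in control rats, are limited by signal not above background.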
